A study of Mus musculus with 5 samples.

Results

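The Wnt gene set comprised 50 of the 54532 genes in the deposited table, taken by gene symbol. It holds all 19 Wnt ligands of the table, the 10 Frizzled receptors, the co-receptors Lrp5 and Lrp6, 10 secreted inhibitors (4 Sfrp genes, 4 Dkk genes, Wif1 and Notum), 5 intracellular transducers (Ctnnb1, Axin1, Lef1, Tcf7 and Tcf7l1) and the feedback genes Axin2, Nkd1, Rnf43 and Znrf3. They were measured by RNA sequencing in neurospheres, which are free-floating balls made by neural progenitors and their offspring. The spheres were grown from the hippocampus of C57BL/6 mice at postnatal day 0 (P0), with B27 supplement and the growth factors EGF and FGF-2 (20 ng/ml each), until day 7. All 5 libraries carried hGFAPCre, a Cre transgene under the human GFAP promoter that is active in neural progenitors. The 3 heterozygous libraries were Arid1b flox/+ and the 2 control libraries were Arid1b+/+. Arid1b encodes a DNA-binding subunit of the BAF chromatin-remodelling complex.

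Wnt proteins are lipid-modified signals that bind a Frizzled receptor together with Lrp5 or Lrp6. In the canonical branch this stops the destruction of beta-catenin, the product of Ctnnb1, which then acts with the Tcf and Lef factors on target genes such as Axin2. In the developing mouse, Wnt3a made by the cortical hem, a signalling centre at the edge of the cortex, is needed for the hippocampus to form.

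Each library held 19833803 to 25494722 recovered reads. The heterozygous libraries correlated at 0.9884 to 0.9893 across genes and the controls at 0.9521. Control replicate 1 stood farthest from the heterozygous libraries (0.9267 to 0.9304), against 0.9708 to 0.9744 for control replicate 2. Heterozygous replicate 2 differed in sex from the other 4 libraries, by its Xist reads and its lack of reads from Y-linked genes. Progenitor genes were present in all libraries, with normalized counts of Sox2 from 5611 to 9615 and of Nes from 6454 to 25196. Arid1b had 1510 and 1730 normalized counts in control against 1102, 1145 and 1003 in heterozygous spheres (limma, log2 fold change -0.58, SE 0.14, adjusted p = 0.0701). The log2 fold change was -0.68 on leaving out control 1 and -0.48 on leaving out control 2, each with a single control left. Without heterozygous replicate 1, 2 or 3 it was -0.62 to -0.52, with limma adjusted p of 0.243 to 0.29. With library weights the limma adjusted p was 0.244, and with the replicate number as a block 0.354. The cells of 1 mouse were plated in 2 wells. The labels do not tie libraries to separate mice. By its sex, heterozygous replicate 2 did not share a mouse with the other 4 libraries, but otherwise the spread behind every p-value may be technical. In bulk RNA, fewer cells of a type and less RNA per cell cannot be told apart.

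Wnt3a and Fzd1 were the members that passed the test in the comparison of heterozygous with control neurospheres, both higher. Their promoters are shown because these genes carry the result, with that of Wnt9a, the closest member to Wnt3a. Each sequence holds the 250 bases before the RefSeq start site (GRCm38.p6), read 5′ to 3′ on the gene's strand, with CG dinucleotides in capitals. Wnt3a and Wnt9a lie 16.2 kb apart on chromosome 11 and are transcribed away from each other.
Wnt3a (chr11:59290752-59291001, - strand): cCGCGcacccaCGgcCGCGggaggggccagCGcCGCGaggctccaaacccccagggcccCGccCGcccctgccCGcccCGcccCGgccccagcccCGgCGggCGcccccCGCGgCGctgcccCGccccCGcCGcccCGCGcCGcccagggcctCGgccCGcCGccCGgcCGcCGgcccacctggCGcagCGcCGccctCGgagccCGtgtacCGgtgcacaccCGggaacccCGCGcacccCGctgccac
Wnt9a (chr11:59306680-59306929, + strand): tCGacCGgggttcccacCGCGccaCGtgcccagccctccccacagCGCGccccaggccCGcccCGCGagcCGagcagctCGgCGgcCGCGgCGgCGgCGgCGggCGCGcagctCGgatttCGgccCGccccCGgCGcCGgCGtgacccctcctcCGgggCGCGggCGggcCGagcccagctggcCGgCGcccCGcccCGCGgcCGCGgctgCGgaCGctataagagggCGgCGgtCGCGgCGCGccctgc
Fzd1 (chr5:4758217-4758466, - strand): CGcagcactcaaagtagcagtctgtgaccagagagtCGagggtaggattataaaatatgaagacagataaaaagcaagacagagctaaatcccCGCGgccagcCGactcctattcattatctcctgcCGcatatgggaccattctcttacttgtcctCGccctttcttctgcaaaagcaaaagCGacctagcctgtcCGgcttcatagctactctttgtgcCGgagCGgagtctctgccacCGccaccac
The Wnt3a window held 41 CG dinucleotides at a GC content of 87.6%, and that of Wnt9a 48 at 84.4%. The Fzd1 window held 12 at 51.2%. A core Tcf and Lef motif, CTTTGAT or ATCAAAG on the other strand, was searched in windows of 300 bases that also take in 50 bases after the start site. Of the 33 members with an entry, Wnt11 and Wnt5b held it, 6.06% of these genes against 4.29% of the 27025 genes of the promoter table. No match was found in these windows of Wnt3a, Wnt9a or Fzd1.

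Of the 50 members, 37 had a mean of at least 10 normalized counts and were tested, and 2 passed (5.41%), against 2.84% of the 16411 genes tested. Wnt3a, 1 of these 2, reached that mean only through its heterozygous libraries. With a minimum mean of 50, Fzd1 alone was called, 1 of the 33 members then tested. The share of 5.41% thus rests on 2 genes and does not show an excess over 2.84%. Over all genes, 1.90% were called higher and 0.944% lower. The 13 with a lower mean were the ligands Wnt1, Wnt2, Wnt6, Wnt8a, Wnt9b, Wnt10a, Wnt10b, Wnt11 and Wnt16 and the inhibitors Dkk1, Dkk2, Dkk4 and Sfrp5. The median log2 fold change, heterozygous over control, was 0.17 over the 37 tested members and 0.01 over all tested genes. By role the medians were 0.42 for ligands, 0.21 for Frizzled receptors, -0.70 for co-receptors, 0.17 for secreted inhibitors, 0.10 for transducers and 0.02 for feedback genes. On leaving out control 1 or control 2 they were 0.30 or 0.34 for ligands, 0.06 or 0.31 for Frizzled receptors and -0.56 or -0.84 for co-receptors. The sign turned for secreted inhibitors (0.75 or -0.86), transducers (-0.14 or 0.24) and feedback genes (-0.22 or 0.39). With edgeR and DESeq2 the secreted inhibitors had medians of -0.30 and -0.32, and the feedback genes -0.02 in both. The groups did not overlap for 15 members, 10 higher and 5 lower in the heterozygous libraries. This was 40.5% of the tested members, against 46.7% of all tested genes. No member was called lower by limma, while 4 were lower and 6 higher at an unadjusted p under 0.05, a limit that 26.1% of all genes passed. edgeR on the recovered reads also called Wnt3a and Fzd1 and no lower member, with 2.49% of all genes called. DESeq2 on the same reads called Wnt3a, Fzd1 and Fzd8 higher and Fzd2, Lrp5 and Tcf7l1 lower, where it called 14.4% of all genes.

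**Figure D1:**
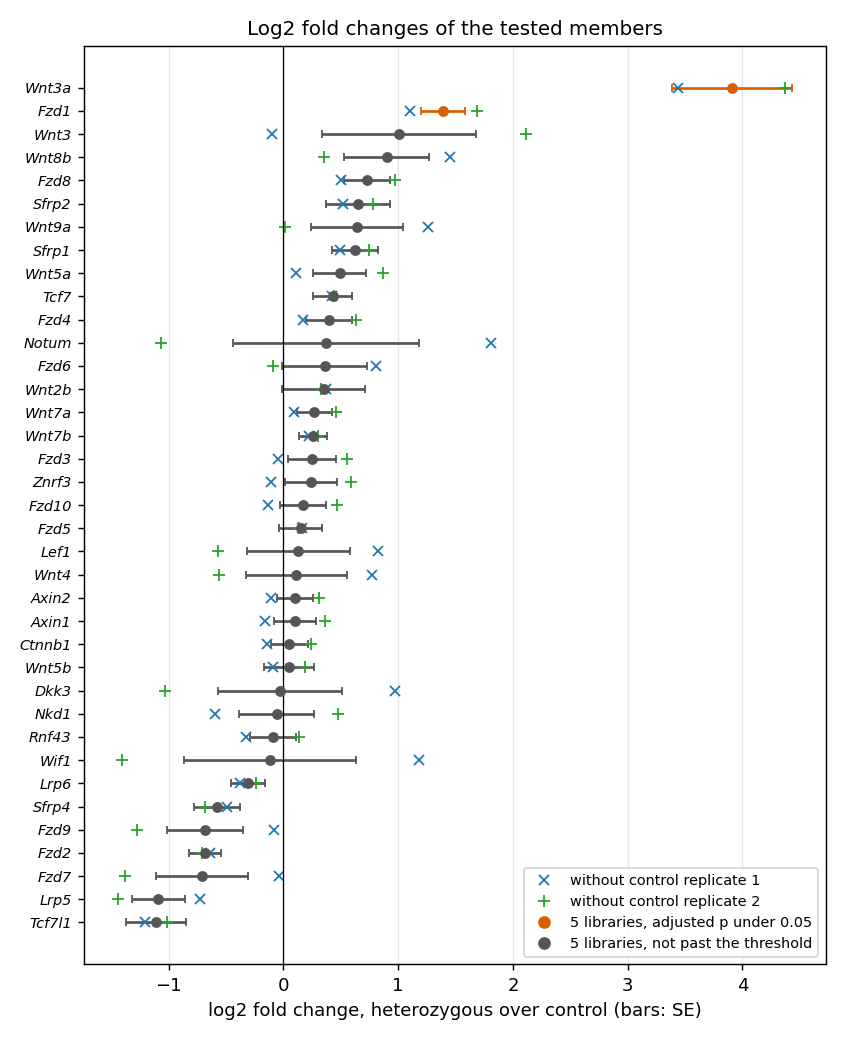
Log2 fold changes, heterozygous over control, of the 37 tested members on the horizontal axis, with SE bars over the 5 libraries. Crosses and plus signs give the same value without control replicate 1 and without control replicate 2. Wnt3a (3.91) and Fzd1 (1.39) stand past the threshold, and for 16 members the sign depends on which control is left out.

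The controls differed from each other more than the heterozygous libraries did. The median absolute log2 difference between the controls was 0.59 over the tested members (0.45 over all genes), while the median range over the 3 heterozygous libraries was 0.31 (0.26 over all genes). Of the 37 members, 11 differed between the controls by more than 1 on the log2 scale. They were Dkk3, Notum, Wif1, Wnt3, Lef1, Wnt4, Fzd7, Wnt9a, Fzd9, Wnt8b and Nkd1. Without control replicate 1, 9 members were called and 16.8% of all genes. Without control replicate 2, 24 members were called and 50.7% of all genes. Either fit rests on a single control that is assumed to vary like the heterozygous libraries. For 16 members the sign of the log2 fold change turned between these fits. Wnt3a, Fzd1, Fzd2, Lrp5 and Tcf7l1 were called in the same direction in both. With any 1 heterozygous library left out, no member passed.

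Among the ligands, Wnt3a rose from almost no reads. The gene (ENSMUSG00000009900) spans bases 59248033 to 59290752 of chromosome 11 (- strand, mm10). It had 0 and 1 reads in control against 20, 18 and 23 in heterozygous spheres, which are normalized counts of 0 and 0.903 against 21.3, 16.0 and 22.4. Every heterozygous library was above both controls, and the group totals were 61 and 1 reads. Scaled for depth, the ratio of these totals was 38.8 (95% exact interval 6.71 to 1559, for counting error only). The interval pools reads over libraries and uses the reads that singled out Wnt3a, so it is not a test of the group difference. The log2 fold change, on the scale of log2(normalized count + 1), was 3.91 (SE 0.52, limma adjusted p = 0.0333). It was 3.44 on leaving out control 1 (adjusted p = 0.00559) and 4.37 on leaving out control 2 (0.000550). Without heterozygous replicate 1, 2 or 3 it was 3.82 to 4.05, with adjusted p of 0.184 to 0.219. Wnt3a reached the minimum mean only through its heterozygous libraries, and its fitted log2 fold change was 4.59 with a pseudocount of 0.5 and 2.19 with 5. The authors' deposited table lists Wnt3a at 1.95 on the log2 scale. With library weights the adjusted p of Wnt3a was 0.106. Per kb of exon it remained a small part of the ligand total, at 0.362% to 0.487% in the heterozygous libraries.

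Most ligand RNA came from Wnt7b, Wnt7a and Wnt5a. Wnt7a and Wnt7b are ligands of progenitors and neurons in the cortex, and Wnt5a acts mainly outside the beta-catenin branch. Per kb of exon, these 3 genes made up 86.7% and 91.3% of all ligand counts in control against 88.1%, 88.5% and 88.0% in heterozygous spheres. Wnt7b alone made up 45.6% to 49.9%, and Wnt7a 24.4% to 27.3%. The order of these genes, Wnt7b above Wnt7a above Wnt5a, was the same in every library. Wnt7b had 3006 and 3187 normalized counts in control against 3772, 3581 and 3785 in heterozygous spheres, without overlap (log2 fold change 0.26, SE 0.12, limma adjusted p = 0.210). Wnt7a had 952 and 1232 against 1347, 1280 and 1300, also without overlap (0.27, SE 0.15, limma adjusted p = 0.296). Wnt5a had 1186 and 2019 against 2097, 2212 and 2219 (0.49, SE 0.23, limma adjusted p = 0.226). Control replicate 2 lay close to the heterozygous libraries for Wnt5a, whose log2 fold change was 0.11 on leaving out control 1 and 0.87 on leaving out control 2 (adjusted p = 0.000382). Without control replicate 2, Wnt7b was 0.30 and Wnt7a 0.46 (adjusted p = 0.0340 and 0.00796), and without control replicate 1 they were 0.22 and 0.09 (0.170 and 0.610). All 10 tested ligands had a positive log2 fold change with 5 libraries, as had 50.5% of all tested genes. On leaving out control 1, 8 were positive (Wnt3 and Wnt5b were negative), and on leaving out control 2, 9 were (Wnt4 was negative). With edgeR and DESeq2, 9 were positive and Wnt4 was -0.02.

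Wnt8b, a ligand of the cortical hem and the hippocampal primordium, had 121 and 56.0 normalized counts in control against 160, 126 and 182 in heterozygous spheres. The groups were narrowly apart, with heterozygous replicate 2 just above control replicate 1 (log2 fold change 0.90, SE 0.37, limma adjusted p = 0.189). Without control replicate 1 it was 1.45 (adjusted p = 0.00922), and 0.35 without control replicate 2. Wnt9a had 87.3 and 36.1 in control against 76.7, 93.5 and 95.5 in heterozygous spheres. Its groups overlapped (0.64, SE 0.40, limma adjusted p = 0.347), and its log2 fold change was 1.26 on leaving out control 1 (adjusted p = 0.0161) and 0.01 on leaving out control 2. The neighbours Wnt3a and Wnt9a thus had different patterns over the controls, Wnt3a being at or near 0 in both. Wnt3 had 3.49 and 19.9 in control against 20.2, 18.7 and 16.6 in heterozygous spheres. Its low value was confined to control replicate 1 among these 5 libraries, and its log2 fold change of 1.01 (limma adjusted p = 0.373) was -0.10 without that library and 2.11 without control replicate 2 (adjusted p = 0.00729). Wnt2b, another ligand of the cortical hem, had 43 and 54 reads in control against 78, 82 and 43 in heterozygous spheres (0.35, limma adjusted p = 0.551). Wnt4 ran from 52.4 to 134 and Wnt5b from 131 to 168 normalized counts over the libraries, both with overlapping groups.

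The 9 ligands under the minimum mean had 0 to 17 reads in any library. Wnt2 had the most, with 4 and 3 reads in control against 7, 10 and 17 in heterozygous spheres. Wnt10a had 0 and 2 reads against 5, 6 and 2. Wnt9b, which lies 24.3 kb from Wnt3 on chromosome 11, had 1 read in each control and 6, 8 and 1 in the heterozygous libraries. None of these 9 genes was tested at this depth.

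**Figure D2:**
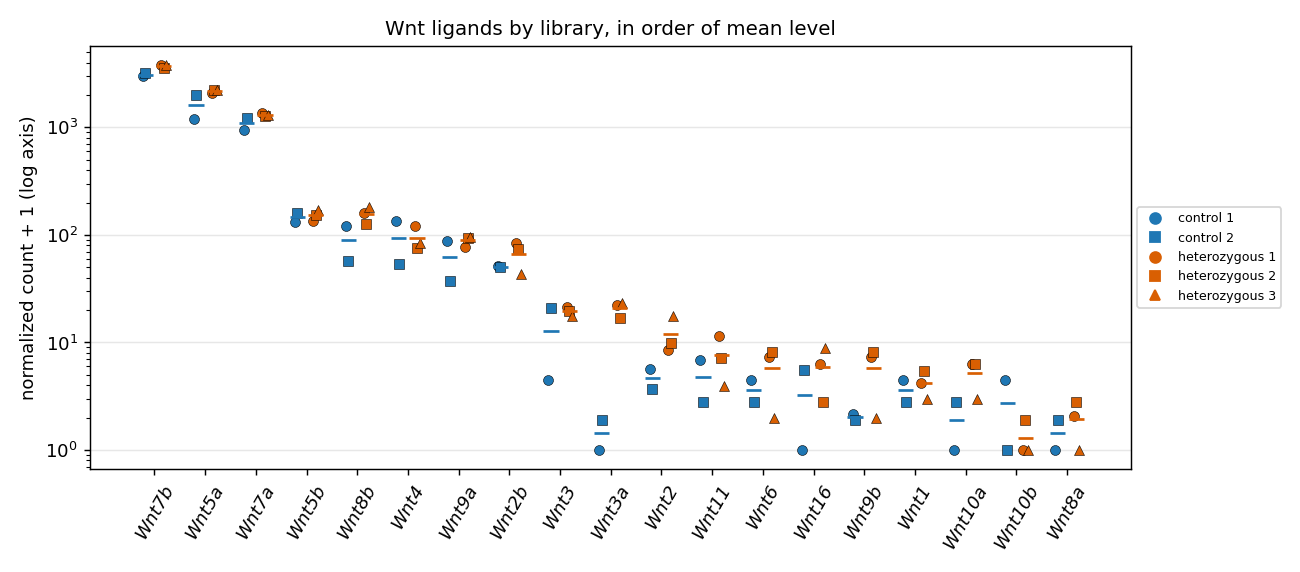
Normalized counts plus 1 (log axis) of the 19 Wnt ligands in order of mean level, with 1 point per library and a bar at each group's mean. Wnt7b, Wnt5a and Wnt7a lie near or above 1000 in all libraries, and Wnt3a is at 0 and 0.903 in the controls against 16.0 to 22.4 in the heterozygous libraries.

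Among the Frizzled receptors, Fzd1 rose. Fzd1 (ENSMUSG00000044674, chromosome 5 from 4753839 to 4758035, - strand, mm10) encodes a receptor that signals mainly through beta-catenin. It had 1082 and 1630 normalized counts in control against 3509, 3469 and 3493 in heterozygous spheres. All heterozygous values were more than those of both controls, and they spanned a far smaller range than the controls. Control spheres averaged 1356 ± 387 (SD, n = 2) and heterozygous spheres 3490 ± 20.4 (SD, n = 3), so the log2 fold change came to 1.39 (SE 0.19, limma adjusted p = 0.0351). It was 1.10 on leaving out control 1 (adjusted p = 0.00110) and 1.69 on leaving out control 2 (3.68e-05). Without heterozygous replicate 1, 2 or 3 it was 1.39 to 1.40, with adjusted p of 0.184 to 0.219. The authors' deposited table lists Fzd1 at 1.28 on the log2 scale (adjusted p = 3.65e-07). At an adjusted p under 0.05 it called 6 of the 39 members with such a value, against 12.3% of all such genes. These were Fzd1, Wnt3a and Fzd8, higher, and Fzd2, Lrp5 and Tcf7l1, lower.

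Fzd8, a receptor also linked to beta-catenin signalling, had 226 and 312 normalized counts in control against 492, 418 and 420 in heterozygous spheres. Its groups did not overlap (log2 fold change 0.73, SE 0.20, limma adjusted p = 0.0929), and DESeq2 gave an adjusted p of 0.0253. Fzd8 was 0.50 on leaving out control 1 (adjusted p = 0.0606) and 0.97 on leaving out control 2 (0.00165). Fzd2 had 875 and 832 in control against 562, 525 and 514 in heterozygous spheres. Both groups were tight and apart (-0.68, SE 0.14, limma adjusted p = 0.0535), and Fzd2 was -0.64 on leaving out control 1 (adjusted p = 0.0137) and -0.71 on leaving out control 2 (0.00234). DESeq2 gave Fzd2 an adjusted p of 0.00149.

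Fzd9 and Fzd7 were highest in control replicate 1. Fzd9, expressed in the developing mouse hippocampus, had 6376 and 2776 normalized counts in control against 2343, 2791 and 2757 in heterozygous spheres. Control replicate 2 lay inside the heterozygous range (limma log2 fold change -0.68, SE 0.33, adjusted p = 0.246). The value was -0.08 on leaving out control 1 and -1.28 on leaving out control 2 (adjusted p = 0.000204). Fzd7 had 1021 and 403 in control against 439, 448 and 303 in heterozygous spheres. Its log2 fold change of -0.71 (limma adjusted p = 0.301) was -0.04 on leaving out control 1 and -1.38 on leaving out control 2 (adjusted p = 0.00161).

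Of the other receptors, Fzd3, which guides axons and orients cells with the planar polarity genes, had 3434 and 5202 against 5429, 5294 and 4453 normalized counts. Fzd4, which also serves the ligand norrin in blood vessels, had 317 and 438 against 536, 513 and 433. Fzd10 had 862 and 1315 against 1201, 1136 and 1262. Control replicate 1 was the lowest library for each of these, and the groups overlapped in all 3. Fzd5 ran from 289 to 383 and Fzd6 from 26.2 to 56.1, again with overlapping groups. With control 2 left out, the log2 fold changes of Fzd3, Fzd4 and Fzd10 were 0.55, 0.63 and 0.47 (limma adjusted p = 0.00971, 0.0121 and 0.00945). Without control replicate 1 they were -0.05, 0.17 and -0.13.

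**Figure D3:**
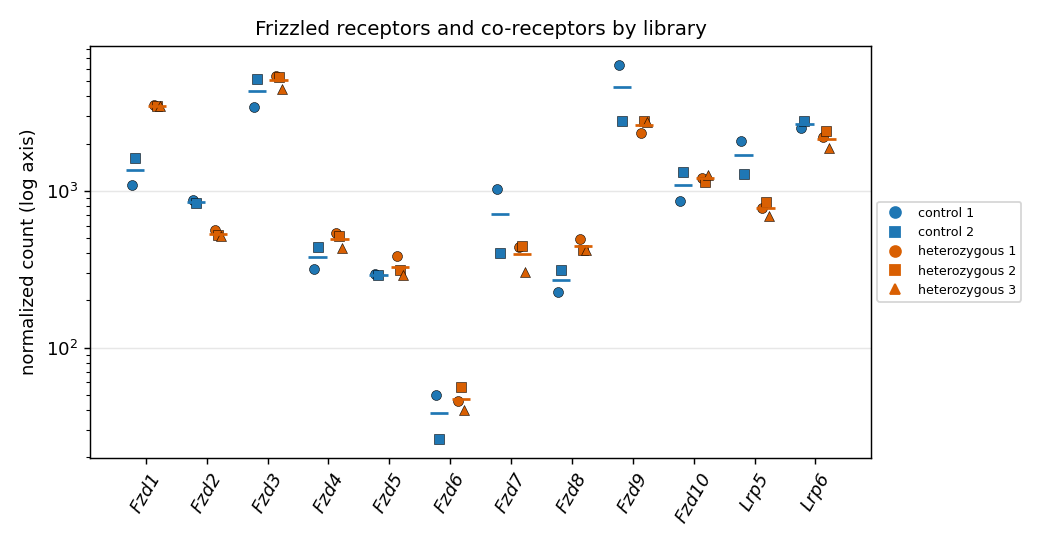
Normalized counts (log axis) of the 10 Frizzled receptors and of Lrp5 and Lrp6, with 1 point per library and a bar at each group's mean. Fzd1 is at 3469 to 3509 in the heterozygous libraries against 1082 and 1630 in the controls, and Lrp5 at 691 to 853 against 2089 and 1280.

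The make-up of the receptor family differed between libraries. Per kb of exon, Fzd9 made up 66.6% and 41.9% of the Frizzled total in control against 32.7%, 37.4% and 38.0% in heterozygous spheres. Fzd1 made up 6.18% and 13.4% in control against 26.7%, 25.4% and 26.3% in heterozygous spheres. Fzd1 was thus second to Fzd9 in every heterozygous library. In the controls it stood behind Fzd3 and Fzd10 as well, which held 6.43% and 6.36% in control replicate 1 and 14.1% and 14.0% in control replicate 2. The ratio of Fzd1 to Fzd9 per kb, in which the scaling between libraries cancels, was 0.0927 and 0.321 in control against 0.818, 0.679 and 0.692 in heterozygous spheres. The ratio of Fzd1 to Fzd2 was 1.08 and 1.71 against 5.45, 5.76 and 5.93. With Fzd1 higher and Fzd2 lower without overlap, this separation follows from their levels and is no further support. Summed over the family, the level was 4174 and 2891 normalized counts per kb in control against 3129, 3252 and 3163 in heterozygous spheres, so the groups overlapped. These shares and ratios are a description with no test, and they rest on the annotated exon length of each gene.

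**Figure D4:**
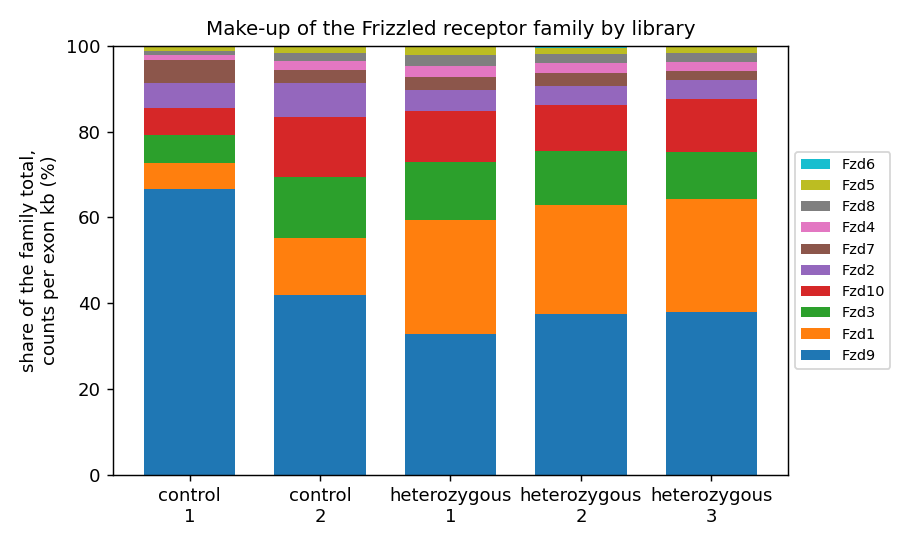
Share of each Frizzled gene in the family total of counts per exon kb (percent, vertical axis) in each of the 5 libraries. The Fzd1 segment is 25.4% to 26.7% in the heterozygous libraries against 6.18% and 13.4% in the controls, and the Fzd9 segment is the tallest in every library.

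Neither co-receptor passed the test, although for both of them each heterozygous library lay below each control. Lrp5 (chromosome 19 from 3584828 to 3686564, - strand, mm10) had 2089 and 1280 normalized counts in control against 772, 853 and 691 in heterozygous spheres. The log2 fold change was -1.09 (SE 0.23, limma adjusted p = 0.0577), -0.73 on leaving out control 1 (adjusted p = 0.0126) and -1.44 on leaving out control 2 (0.000183). The authors' deposited table gave Lrp5 an adjusted p of 6.62e-04. Lrp6 had 2531 and 2789 in control against 2198, 2392 and 1862 in heterozygous spheres, with groups that lay close together (-0.31, SE 0.15, limma adjusted p = 0.239). The ratio of Lrp5 to Lrp6 per kb was 1.16 and 0.644 in control against 0.493, 0.501 and 0.521 in heterozygous spheres.

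None of the 6 tested secreted inhibitors passed the test. Secreted Frizzled-related proteins bind Wnts outside the cell. Sfrp1 had 376 and 450 normalized counts in control against 756, 645 and 521 in heterozygous spheres (log2 fold change 0.62, SE 0.20, limma adjusted p = 0.128). Sfrp2 had 147 and 175 against 180, 284 and 314 (0.65, SE 0.28, limma adjusted p = 0.207). Sfrp4 had 229 and 200 against 133, 157 and 139 (-0.58, SE 0.20, limma adjusted p = 0.136). In each of the 3 the groups did not overlap, with Sfrp1 and Sfrp2 higher and Sfrp4 lower in the heterozygous libraries. Sfrp1 was 0.75 and Sfrp4 -0.68 without control replicate 2 (limma adjusted p = 0.0144 and 0.0199), and 0.49 and -0.49 without control replicate 1 (0.126 and 0.127). Sfrp5, under the minimum mean, had 9 and 15 reads in control against 6, 5 and 4 in heterozygous spheres.

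Among the inhibitors, Dkk3, Wif1 and Notum differed most between the controls. Dkk3, a divergent Dickkopf that is not a typical Wnt inhibitor, had 1891 and 471 normalized counts in control against 1118, 921 and 764 in heterozygous spheres. Wif1, which binds Wnts, had 114 and 18.1 against 45.8, 29.4 and 55.5. Notum, the enzyme that removes the lipid from Wnts, had 46.5 and 5.42 against 20.2, 23.1 and 21.4. For all 3, every heterozygous library lay between the controls. The log2 fold changes without control replicate 1 and without control replicate 2 were 0.97 and -1.03 for Dkk3 (adjusted p = 0.0150 and 0.00298) and 1.81 and -1.07 for Notum (0.0254 and 0.0362). They were 1.18 and -1.41 for Wif1 (0.0893 and 0.0155). The classical inhibitors Dkk1, Dkk2 and Dkk4 had 0 to 4 reads in any library.

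The intracellular members did not pass either. Tcf7l1, which mostly represses Wnt targets in the absence of signal, had 374 and 429 normalized counts in control against 136, 212 and 219 in heterozygous spheres. The groups were well apart (log2 fold change -1.11, SE 0.26, limma adjusted p = 0.0691), with -1.21 on leaving out control 1 (adjusted p = 0.0214) and -1.01 on leaving out control 2 (0.0163). DESeq2 gave Tcf7l1 an adjusted p of 0.00264. Tcf7, a related factor that can activate targets, had 225 and 228 against 298, 291 and 324, without overlap (0.43, SE 0.17, limma adjusted p = 0.171). Ctnnb1 had 13034 and 16928 against 15561, 15118 and 15398, so the heterozygous libraries lay between the controls (0.05, SE 0.16, limma adjusted p = 0.866). Axin1, a scaffold of the complex that destroys beta-catenin, had 933 and 1334 against 1177, 1156 and 1257. Lef1 ran from 28.9 to 76.8 with overlapping groups. Without control replicate 2, Tcf7 was 0.44 and Axin1 0.36 (limma adjusted p = 0.0467 and 0.0274), and without control replicate 1 they were 0.42 and -0.16 (0.106 and 0.363).

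The feedback genes, which Wnt signalling switches on in many tissues, had overlapping groups. Axin2, the most widely used readout of the beta-catenin branch, had 1365 and 1821 normalized counts in control against 1595, 1729 and 1746 in heterozygous spheres. The heterozygous values lay inside the range of the controls (log2 fold change 0.10, SE 0.16, limma adjusted p = 0.713), with -0.11 on leaving out control 1 and 0.31 on leaving out control 2 (adjusted p = 0.0438). Nkd1, an inhibitor of the Wnt transducer Dishevelled, had 553 and 1174 against 633, 795 and 914. Rnf43 and Znrf3 encode ubiquitin ligases that remove Frizzled receptors from the cell surface. Rnf43 had 433 and 599 against 438, 552 and 451, and Znrf3 had 649 and 1055 against 1005, 1057 and 886. Znrf3 was 0.59 without control replicate 2 (limma adjusted p = 0.00710) and -0.11 without control replicate 1 (0.623). Control replicate 1 was the lowest of the 5 libraries for Axin2, Nkd1, Rnf43 and Znrf3.

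Further genes of the pathway were taken from 6 lists with 88 entries, of which 87 were in the table and 78 were tested. Over all lists, 3 were called higher and 2 lower, or 6.41% of those tested, against 2.84% of all tested genes. The lists were chosen with earlier results of these data known, so this share is a description and not a test of the pathway. At an unadjusted p under 0.05, 20 of the listed genes were higher and 7 lower, a limit that 26.1% of all tested genes passed. The median log2 fold change was -0.01 for transducers, 0.46 for further targets, 0.11 for other receptors, -0.15 for other inhibitors and 0.05 for planar polarity genes. The sign of 3 of these medians turned between the fits without control replicate 1 and without control replicate 2, those of transducers (-0.06 and 0.04), other inhibitors (0.05 and -0.08) and planar polarity genes (0.12 and -0.13). That of further targets was 0.55 and 1.22. Of 7 tested secretion and ligand partners, Wls and Rspo3 rose and 5 did not pass, with a median log2 fold change of 1.09 (0.84 without control replicate 1 and 0.82 without control replicate 2). Wls, the carrier that brings Wnts to the cell surface, had 557 and 796 normalized counts in control against 1525, 1299 and 1467 in heterozygous spheres, without overlap (log2 fold change 1.10, SE 0.19, limma adjusted p = 0.0440). Rspo3, an R-spondin that keeps Frizzled receptors at the surface by inhibiting Rnf43 and Znrf3, had 45.4 and 56.0 against 191, 192 and 180 (1.88, SE 0.22, limma adjusted p = 0.0263). The heterozygous values of Rspo3 were all more than 3 times either control. The other R-spondins were named after their values were seen. Rspo4, under the minimum mean, had 12 and 4 reads in control against 0, 1 and 2 in heterozygous spheres, all below both controls. Rspo1 and Rspo2 had 18.6 and 12.6 against 29.8, 40.1 and 32.1, and 131 and 43.3 against 216, 141 and 258. Neither passed (limma adjusted p = 0.127 and 0.153). Without control replicate 1 their log2 fold changes were 1.35 and 2.17 (adjusted p = 0.0424 and 0.00548), and without control replicate 2 they were 0.82 and 0.59 (0.0904 and 0.148). Rspo3 shares exon bases with Gm48159 on the opposite strand.

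Of 10 tested other receptors none passed, 3 being higher and 1 lower at an unadjusted p under 0.05, which 26.1% of all tested genes passed. Lgr4 and Lgr6, receptors of R-spondins, had the smallest p. Lgr4 had 283 and 270 normalized counts in control against 514, 519 and 450 in heterozygous spheres (log2 fold change 0.83, SE 0.16, limma adjusted p = 0.0510). Lgr6 had 11.6 and 18.1 against 41.5, 41.0 and 44.8 (1.48, SE 0.34, limma adjusted p = 0.0665). In both, the groups lay well apart, and DESeq2 gave adjusted p of 8.22e-04 and 0.0298. Lgr4 was 0.87 on leaving out control 1 and 0.80 on leaving out control 2 (limma adjusted p = 0.00837 and 0.00286). Lgr6 was 1.19 and 1.78 in the same fits (0.0394 and 0.00326).

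Of 8 tested other inhibitors, Draxin fell and 7 did not pass. Draxin, a secreted axon guidance protein that also binds Lrp6 and inhibits Wnt signalling, had 1479 and 1134 normalized counts in control against 266, 281 and 282 in heterozygous spheres (log2 fold change -2.22, SE 0.17, limma adjusted p = 0.0227). Of 11 planar polarity genes, Fuz fell and 10 did not pass. Fuz, a planar polarity effector needed for cilia in the mouse, had 461 and 417 against 214, 248 and 230 (-0.93, SE 0.17, limma adjusted p = 0.0486). It shares exon bases with Ap2a1 (720) and D7Bwg0826e (1207) on the opposite strand. Of 10 tested further targets, Neurod1 rose and 9 did not pass. Neurod1, a neurogenic factor that also marks young neurons, had 114 and 191 against 439, 520 and 582 (1.78, SE 0.26, limma adjusted p = 0.0375). Neurod1 shares exon bases with Cerkl and Gm26755. Of 32 cytoplasmic and nuclear transducers none passed with limma. At an unadjusted p under 0.05, which 26.1% of all tested genes passed, 4 were higher and 2 lower. Apc2 had the values 2263 and 3538 against 5134, 4899 and 4021, and Dvl2 1048 and 1047 against 726, 733 and 840 (limma adjusted p = 0.115 and 0.111). On the opposite strand, Dvl2 shares 1151 exon bases with Acadvl, and Apc2 shares 10 with 2310011J03Rik. Without control replicate 2, Apc2 was 1.04 and Dvl2 -0.46 (adjusted p = 0.000850 and 0.0198), and without control replicate 1 they were 0.40 and -0.45 (0.101 and 0.0490).

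All 5 called pathway genes kept their direction and their call without control replicate 1 and without control replicate 2. They lost it without any 1 heterozygous library, with limma adjusted p from 0.184 to 0.246. edgeR and DESeq2 called all 5. With library weights Draxin was called (adjusted p = 0.0142), while Wls, Rspo3, Neurod1 and Fuz were not (0.0914, 0.0545, 0.0566 and 0.171).

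**Figure D5:**
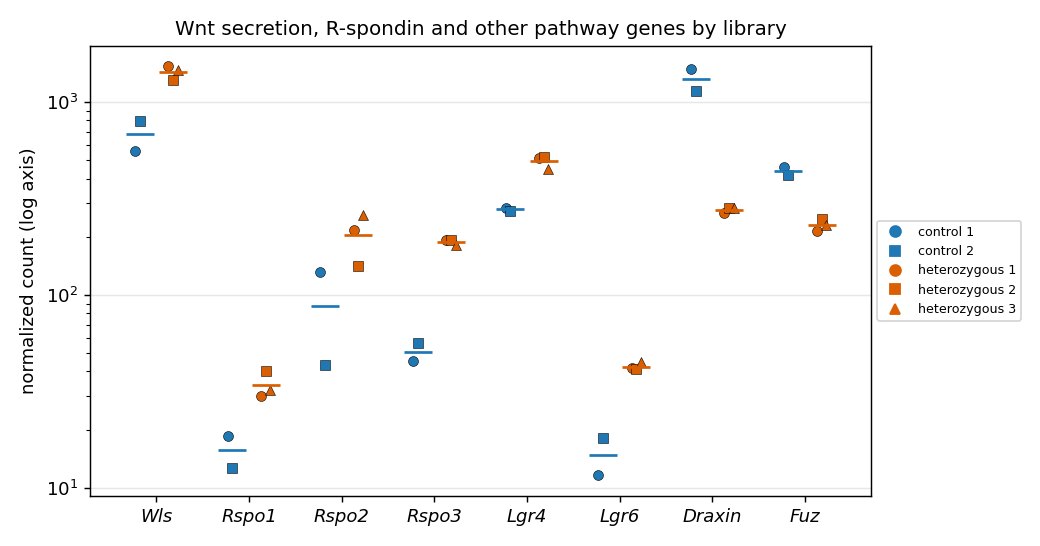
Normalized counts (log axis) of Wls, Rspo1, Rspo2, Rspo3, Lgr4, Lgr6, Draxin and Fuz, with 1 point per library and a bar at each group's mean. The heterozygous libraries lie above both controls for Wls, Rspo1, Rspo2, Rspo3, Lgr4 and Lgr6, and below both for Draxin and Fuz.

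Markers of other cell types and states also differed between libraries, and their part in these results was not tested. Over all tested genes, limma called 1.90% higher and 0.944% lower. Of 10 neuron markers 6 rose and none fell, and their summed normalized counts were 19284 and 25406 in control against 45280, 37308 and 31386 in heterozygous spheres. Of 8 hypoxia response genes 7 fell, and their sum was 68949 and 25618 in the controls against 7333, 7163 and 6570. Of 9 choroid plexus and cortical hem markers 5 were tested and none passed by limma (3 higher at an unadjusted p under 0.05), with sums of 256 and 431 against 690, 397 and 465. The 3 higher ones were Otx2, Lmx1a and Rspo2, which is also on a pathway list. Otx2, with the smallest p of the 5, had 48.9 and 44.2 against 113, 97.9 and 106 (limma adjusted p = 0.0543). Lmx1a, a factor of the cortical hem, had 18.6 and 16.3 against 35.1, 27.6 and 52.6 (limma adjusted p = 0.154). Kl, under the minimum mean, was lower in every heterozygous library (6.98 and 3.61 against 3.19, 2.67 and 2.92). Ttr had 6.98 and 304 against 287, 103 and 23.4. Of the 5 tested, 4 had a positive and 1 a negative log2 fold change. Of 10 meninges and fibroblast markers 9 were tested and none passed (2 higher at an unadjusted p under 0.05), with sums of 816 and 284 against 745, 588 and 554. Of 10 neural stem cell markers Hes5 and Fgfr3 fell and 8 did not pass. Without overlap between groups, 3 were higher (Nes, Hopx and Vim) and 6 lower, or 90.0%, against 46.7% of all tested genes. The sum of the 10 markers was 97742 and 142348 in control against 184855, 160634 and 194775. Of 8 astrocyte markers Aqp4 fell, with sums of 154730 and 119426 against 101031, 102782 and 87893. Of 8 oligodendrocyte lineage markers Sox10 fell, with sums of 51992 and 83263 against 57159, 66094 and 73115. Of the 6 endothelium and 4 microglia markers tested none passed by limma (1 and 0 at an unadjusted p under 0.05, which 26.1% of all genes passed). The endothelium sums were 180 and 166 against 290, 214 and 141, and the microglia sums 45.4 and 71.3 against 59.6, 189 and 245. No marker of these lists was at 0 in all libraries.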

How the data were processed

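Per the labels' protocols, Trizol was used for RNA, an NEBNext Ultra kit for libraries and an Illumina Xten for sequencing. STAR, DESeq2 and mm10 are named in the submitters' processing notes. For the table's versions, annotation, counter and strand setting, the sources used here give nothing. The deposited values are a normalized signal, and they read as counts that the authors divided by a size factor for each library. With a tolerance of 0.001 read, 100% of them came out as whole reads. A log2 fold change, standard error, Wald score, p-value and adjusted p-value from the authors' own comparison stand beside them.

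Expression was log2(normalized count + 1). Genes averaging 10 or more (16411) were tested, two-sided, in limma 3.58.1 under R 4.3.3 with a trend on intensity. P-values were Benjamini-Hochberg adjusted over all of them, with a threshold of 0.05. All members are accounted for, those with a mean of at least 10 with values. Of the pathway lists, called genes are named, or the 2 with the smallest p where none passed. The members and lists were chosen with earlier results of these data known. Positions and exon lengths are from GENCODE on mm10, and promoters from RefSeq on GRCm38.p6. Without a strand setting, reads of 11 members that share exon bases with another gene on the opposite strand (Axin2, Ctnnb1, Fzd5, Fzd6, Lef1, Notum, Sfrp2, Tcf7l1, Wnt11, Wnt5a and Wnt7b) cannot be told apart from that gene's. Counting intervals cover counting error only.

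Alternatives were other pseudocounts (0.5 and 5), other filters (none, or a mean of at least 50), TMM scaling (edgeR 4.0.16), quantile normalization, library weights, edgeR's quasi-likelihood test and DESeq2 (1.42.0) on the recovered reads, the replicate number as a block, and each library left out.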

Additional observations from a re-analysis of the deposited data

How the results depend on the processing

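The number of members called higher was 2, and it was 1 with a mean of at least 50 (Wnt3a then not tested) and 1 with library weights. The number called lower was 0, and it was 1 with no filter (Lrp5) and 3 with DESeq2. The members' median log2 fold change of 0.17 was 0.258 with no filter. Over all genes, 311 were called higher and 155 lower, against 79 and 38 with library weights and 1174 and 1151 with DESeq2. With 1 library left out, members called ran from 0 to 15 higher and from 0 to 9 lower. The median ran from 0.108 to 0.304, and calls over all genes from 0 to 4465 higher and from 0 to 3855 lower. The highest counts came without control replicate 2 and the lowest without a heterozygous library, where 2 libraries remain in each group; the cause was not tested.

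The replicate number as a block left 0 members called higher, 0 lower and a median of 0.238. Over all genes, 0 were then called higher and 1 lower. Same-numbered libraries did not deviate together (correlations of 0.028 and -0.04 across genes). With 2 controls, the deviations of one mirror those of the other, so this check cannot tell whether same-numbered libraries shared a batch. Heterozygous replicate 3 has no partner and adds nothing to that fit.

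Among single genes, 10 values turned sign under a setting other than leaving out a library. Dkk3 was 0.033 with library weights and 0.103 with the block, and Wnt5b -0.004 with quantile normalization and -0.030 with the block. With edgeR and DESeq2, Lef1 was -0.021 and -0.022, Notum -0.249 and -0.275, and Wnt4 -0.024 and -0.024. With 1 library left out, 16 genes turned sign. They ran from -0.158 to 0.357 (Axin1), -0.109 to 0.307 (Axin2), -0.140 to 0.237 (Ctnnb1), -1.034 to 0.968 (Dkk3), -0.133 to 0.474 (Fzd10), -0.046 to 0.553 (Fzd3), -0.094 to 0.815 (Fzd6) and -0.565 to 0.815 (Lef1). The others ran from -0.604 to 0.481 (Nkd1), -1.075 to 1.814 (Notum), -0.325 to 0.142 (Rnf43), -1.415 to 1.179 (Wif1), -0.102 to 2.114 (Wnt3), -0.562 to 0.775 (Wnt4), -0.091 to 0.189 (Wnt5b) and -0.106 to 0.593 (Znrf3).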
